A study of Mus musculus with 15 samples.

Results

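Transcripts of the glutathione, antioxidant and metallothionein genes were measured in LSK cells sorted from mouse marrow. LSK stands for lineage-negative, Sca-1+ and Kit+, a surface profile shared by stem cells and early progenitors of the blood. The set has 10 genes: Gsr, Gstm1, Gclm, Gclc, Gpx1, Txnrd1, Cat, Sod2, Mt1 and Mt2. Its members were all probe sets for which the platform annotation lists a single symbol from this set. This gave 18 probe sets of 9 genes, of 45141 probe sets and 17097 named genes on the array. Mt2 was not analysed here. The brightest probe set of each gene, by its mean over 15 arrays, gave the values below, and the other probe sets served as a check.

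Donor marrow came from female C57Bl/6 mice treated with 5-fluorouracil (5-FU). It was transduced with 1 of 2 retroviral vectors, MSCV-HOXB4-ires-YFP, which carries HOXB4 and a yellow fluorescent protein, or the control MSCV-ires-GFP, which carries green fluorescent protein alone. Both supernatants came from GPE+86-derived producer cells, and all recipients were lethally irradiated C57Bl/6 mice. Fluorescent LSK cells were sorted at 6, 12 and 20 weeks after transplantation for HOXB4 and at 12 and 20 weeks for GFP. Each of these 5 groups has 3 arrays. These times are those of the sample titles, and the last of them is 24 weeks in the series text. GFP cells of 6 weeks were not analysed here, so the 6-week HOXB4 cells have no control of their own time. The cells were not cultured after the sort. HOXB4 groups also carry a different fluorescent protein from their control.

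Glutathione is a small thiol that cells make from glutamate, cysteine and glycine, spend on reducing peroxides and on tagging reactive compounds, and regenerate with NADPH. Thioredoxin, superoxide dismutases and catalase form parallel arms of the same defence, and metallothioneins bind zinc and other metals through their cysteines. Blood stem cells are known for low levels of reactive oxygen, kept low in part by FoxO factors, whereas granulocytes and monocytes make oxidants on purpose with NADPH oxidase. Many genes of the glutathione and thioredoxin arms are targets of the transcription factor Nrf2 through antioxidant response elements (ARE), and metallothionein genes are targets of Mtf1 through metal response elements (MRE).

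The promoters of the 3 lower members whose windows held such an element are shown, since the letters place those elements beside the values that follow. Each window runs from 250 bases before to 30 bases after a transcript start of RefSeq on GRCm38.p6, for 280 bases in all. Capitals mark matches on either strand to the MRE core, TGCACNC or TGCGCNC, and to the ARE core, TGACNNNGC.
Mt1, chr8:94178839-94179118, plus strand: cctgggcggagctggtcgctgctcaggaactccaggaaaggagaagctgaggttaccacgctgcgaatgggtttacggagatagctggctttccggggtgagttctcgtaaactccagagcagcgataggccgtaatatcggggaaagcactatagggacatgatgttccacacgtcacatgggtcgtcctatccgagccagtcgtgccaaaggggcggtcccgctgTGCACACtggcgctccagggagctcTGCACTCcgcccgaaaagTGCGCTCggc
Gclm, chr3:122245307-122245586, plus strand: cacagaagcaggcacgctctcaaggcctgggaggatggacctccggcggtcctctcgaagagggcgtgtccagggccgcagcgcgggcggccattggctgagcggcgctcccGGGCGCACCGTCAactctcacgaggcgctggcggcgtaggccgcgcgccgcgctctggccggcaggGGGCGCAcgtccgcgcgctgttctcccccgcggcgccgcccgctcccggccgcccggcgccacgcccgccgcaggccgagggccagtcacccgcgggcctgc
Gstm1, chr3:108017789-108018068, minus strand: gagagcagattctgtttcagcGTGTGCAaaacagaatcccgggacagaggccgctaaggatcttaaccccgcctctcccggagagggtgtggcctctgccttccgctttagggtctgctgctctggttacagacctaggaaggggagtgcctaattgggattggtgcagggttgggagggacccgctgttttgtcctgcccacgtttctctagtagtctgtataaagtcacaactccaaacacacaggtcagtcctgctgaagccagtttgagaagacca

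The Mt1 window held 3 MRE cores, which began 23 bases before the start and at bases 2 and 20 after it. The Gclm window held 2 MRE cores and 1 ARE core, all on the opposite strand. Its first run of capitals holds an MRE core and the ARE core, which overlap. Gstm1 held 1 MRE core, and a second Gstm1 window from a start further upstream held the same one. Of 32851 promoter windows of this length, 24.1% held an MRE core of either form and 11.5% an ARE core, so single matches are common. Of 3 Txnrd1 windows 1 held an ARE core, and the windows of Gpx1, Cat and Sod2 held neither element. Gsr and Gclc were not among the windows used. A match is a description of the letters and not evidence that a factor binds there.

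Signals are log2 values from RMA, a method that corrects background, quantile-normalises arrays and summarises probes, so a difference of 1 is a doubling. Differences are given on this log2 scale with the standard error (SE) of a limma model over all genes, and group means with the standard deviation (SD, n = 3). A gene was called at a Benjamini-Hochberg adjusted p under 0.05 over 17097 genes. Whether replicate arrays hold RNA of separate mice is not stated in the labels, and p-values then cover only array-to-array spread, which may be technical. An exact permutation test (two-sided) of 1 gene in 3 against 3 arrays cannot reach a p under 0.1. In sorted bulk RNA, fewer cells of a type and less RNA per cell cannot be told apart. Of the markers of LSK cells, Kit lay between 8.07 and 8.70 as a group mean in all 5 groups, and Ly6a, the gene of Sca-1, was not analysed here. The 3' minus 5' difference of the Gapdh control probe sets was 3.76, 1.68 and 1.71 on HOXB4 6-week replicates 1, 2 and 3. It was 2.02 on HOXB4 20-week replicate 3 and 0.81 to 1.39 on the remaining arrays. Comparisons with the 6-week group therefore also compare arrays that differ in this measure.

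At 20 weeks 5 of the 9 genes were lower in HOXB4 than in GFP cells: Gsr, Gstm1, Gclm, Sod2 and Mt1. None was higher. Over all genes 8.95% were called in this comparison. The difference was large for Mt1 (7.42-fold), Gsr (5.96-fold) and Gstm1 (4.72-fold), about 2.13-fold for Gclm, and shallow for Sod2 (1.43-fold). The Mt1 fold has no exact size, since its probe set read low on HOXB4 20-week replicates 2 and 3. The median difference of the 9 genes was -0.57, against 0.02 over all genes. At 12 weeks all of the 9 genes but Cat had negative differences, that of Txnrd1 near 0. Only Gclm was called, 1 of 9 genes against 4.02% of all genes. An unadjusted p under 0.05 (limma) was found for 7 of the 9, all lower, against 19.6% of all genes. The median of the 9 was then -0.44, against -0.02 over all genes. The members were chosen with earlier results of these data known, so these shares and medians describe the set and are not a test of it.

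**Figure D1:**
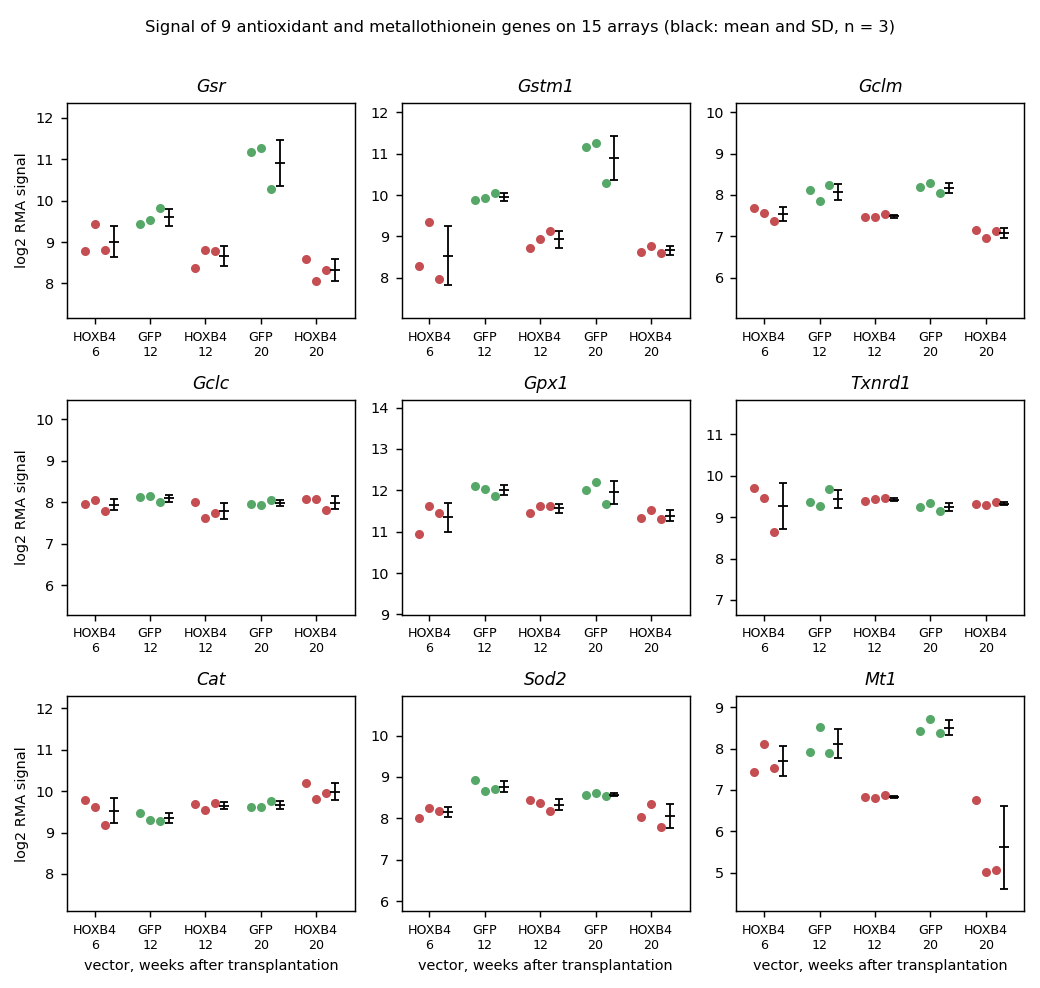
Log2 RMA signal (vertical axis) of the 9 measured genes on each of 15 arrays, by vector and weeks after transplantation (horizontal axis), with HOXB4 in red, GFP in green, and the group mean and SD in black (n = 3); every vertical axis spans the same number of log2 units. Gsr, Gstm1 and Mt1 differ most between groups, and Gclc and Txnrd1 stay within 0.30 and 0.20 between their highest and lowest group means.

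The first step of glutathione synthesis is run by glutamate-cysteine ligase, whose catalytic subunit is Gclc and whose modifier subunit, which raises the enzyme's activity, is Gclm. Gclm read 8.12, 7.86 and 8.24 on the GFP arrays at 12 weeks and 8.20, 8.28 and 8.04 at 20 weeks. In HOXB4 cells it read 7.69, 7.58 and 7.37 at 6 weeks, 7.48, 7.46 and 7.53 at 12 weeks, and 7.16, 6.96 and 7.13 at 20 weeks. All 9 HOXB4 arrays lay below all 6 GFP arrays. The HOXB4 minus GFP difference was -0.58 ± 0.12 (SE) at 12 weeks (adjusted p = 0.0183, limma) and -1.09 ± 0.12 at 20 weeks (adjusted p = 7.45e-05). The 12-week call was lost without each of GFP 12-week replicates 1 and 3 and HOXB4 12-week replicates 1, 2 and 3, with adjusted p from 0.0519 to 0.0851 and differences from -0.60 to -0.50.

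Gclc, the other subunit, was called in none of the 7 comparisons. Its group means lay between 7.79 and 8.09, and its lowest group was HOXB4 at 12 weeks (7.79 ± 0.20) rather than at 20 weeks (7.98 ± 0.16). At 20 weeks the difference was 0.00 with a 95% interval of -0.26 to 0.26, and the arrays of both groups overlapped. At 12 weeks the HOXB4 arrays lay just below the GFP arrays, in a near tie of the closest 2 arrays. The difference of the means was -0.30 ± 0.12, which did not pass (adjusted p = 0.187, limma).

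Gsr, glutathione reductase, turns oxidised glutathione back to the reduced form with NADPH. On the GFP arrays it read 9.44, 9.52 and 9.83 at 12 weeks and 11.16, 11.28 and 10.28 at 20 weeks. In HOXB4 cells it read 8.79, 9.44 and 8.81 at 6 weeks, 8.38, 8.81 and 8.80 at 12 weeks, and 8.60, 8.07 and 8.33 at 20 weeks. The order of the group means was therefore GFP at 20 weeks, GFP at 12 weeks, then HOXB4 at 6, 12 and 20 weeks, and neighbouring HOXB4 groups did not differ beyond their spread. GFP replicate 3 at 20 weeks was the lowest of its group, yet above every array of the other groups. The difference between vectors was -0.93 ± 0.25 at 12 weeks (adjusted p = 0.0517, limma) and -2.57 ± 0.25 at 20 weeks (adjusted p = 2.04e-05). The arrays did not overlap at either time.

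A second Gsr probe set was also available. It gave -1.26 ± 0.28 at 12 weeks (adjusted p = 0.0255, limma over all named probe sets) and -3.36 ± 0.28 at 20 weeks (adjusted p = 8.74e-06). Both Gsr probe sets were thus lower at 20 weeks, whereas only the dimmer passed at 12 weeks. The dimmer had HOXB4 group means of 6.92, 7.05 and 6.65 at 6, 12 and 20 weeks. Its HOXB4 groups therefore did not repeat the order of the brightest probe set.

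Gstm1, a mu-class transferase that joins glutathione to reactive compounds, had much the same pattern. On the GFP arrays it read 9.87, 9.92 and 10.06 at 12 weeks and 11.16, 11.25 and 10.29 at 20 weeks. In HOXB4 cells it read 8.30, 9.34 and 7.97 at 6 weeks, 8.73, 8.93 and 9.13 at 12 weeks, and 8.61, 8.78 and 8.59 at 20 weeks. All 9 HOXB4 arrays lay below all 6 GFP arrays, and replicate 3 of GFP at 20 weeks was again the lowest of its group. The difference was -1.02 ± 0.29 at 12 weeks (adjusted p = 0.0658, limma) and -2.24 ± 0.29 at 20 weeks (adjusted p = 0.000206).

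The brightest Gstm1 probe set has a name that marks possible cross-hybridisation (x_at), so transcripts of related transferases may add to it. A second probe set without that mark gave -1.14 ± 0.28 at 12 weeks (adjusted p = 0.0442, limma) and -2.21 ± 0.28 at 20 weeks (adjusted p = 0.000229). Another, again marked, read 6.55, 6.80 and 5.70 on the GFP and 4.24, 4.26 and 4.31 on the HOXB4 arrays at 20 weeks. The highest nonspecific control probe set of those HOXB4 arrays read 4.35, 4.43 and 4.25, so this probe set was not clearly above background there and its difference has no exact size. The dimmest lay below the highest control of its array on all arrays at 12 and 20 weeks, and its difference is not read. The brighter 2 of the 4 Gstm1 probe sets were therefore lower at 20 weeks with levels above background on both sides.

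**Figure D2:**
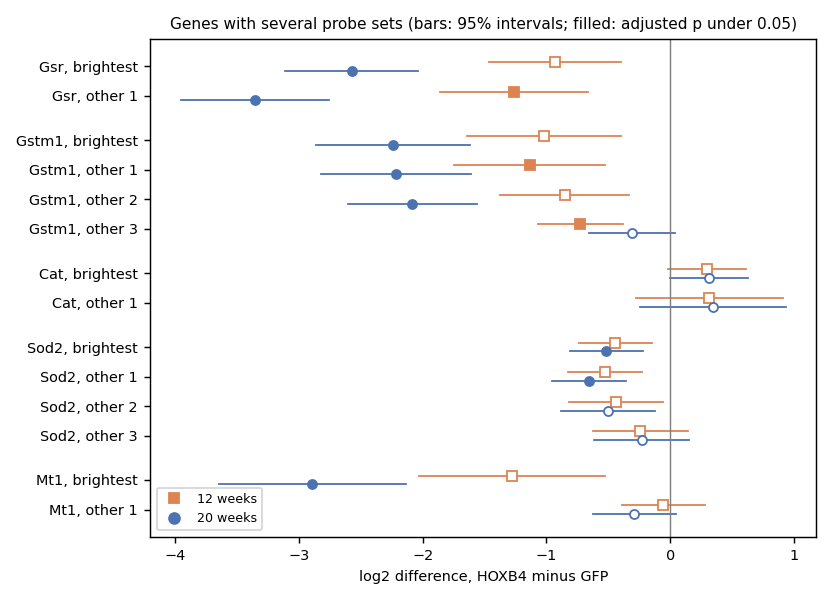
HOXB4 minus GFP log2 difference (horizontal axis) at 12 weeks (squares) and 20 weeks (circles) for each probe set of the 5 genes with several, with 95% intervals; filled symbols have an adjusted p under 0.05. Both Gsr probe sets and the brighter 2 Gstm1 probe sets are filled at 20 weeks. The next dimmer Gstm1 probe set is filled there too, but its HOXB4 arrays were not clearly above background. The dimmest Gstm1 probe set lay below the highest control of each array at both times, and the second Mt1 probe set lies near 0 at both times.

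Gpx1, the abundant glutathione peroxidase that reduces hydrogen peroxide, did not pass at either time. It read 12.01, 12.21 and 11.66 on the GFP arrays at 20 weeks against 11.32, 11.53 and 11.31 on the HOXB4 arrays, which lay below them. The difference was -0.57 ± 0.17 at 20 weeks (adjusted p = 0.0512, limma) and -0.44 ± 0.17 at 12 weeks (adjusted p = 0.173). The 20-week value lay close to the threshold, and 8 of 16 other ways of processing brought it under 0.05.

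Txnrd1, the cytosolic reductase that keeps thioredoxin reduced, was called in none of the comparisons. At 12 weeks its group mean was 9.44 ± 0.22 (GFP) against 9.43 ± 0.04 (HOXB4), and at 20 weeks 9.24 ± 0.10 against 9.32 ± 0.04. The arrays overlapped at both times, and the 95% interval of the 20-week difference ran from -0.35 to 0.51. In HOXB4 cells at 6 weeks its arrays spread from 8.65 to 9.71, wider than in any later group.

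Sod2, the mitochondrial superoxide dismutase, and Cat, the catalase that breaks down hydrogen peroxide in peroxisomes, had differences of opposite sign, of which that of Cat did not pass. Sod2 read 8.58, 8.61 and 8.53 on the GFP arrays and 8.03, 8.35 and 7.78 on the HOXB4 arrays at 20 weeks. The groups did not overlap, and the difference was -0.52 ± 0.14 (adjusted p = 0.0292, limma). At 12 weeks Sod2 read 8.93, 8.66 and 8.72 in GFP against 8.43, 8.37 and 8.17 in HOXB4 cells, a difference of -0.44 ± 0.14 that did not pass (adjusted p = 0.088). The 20-week call was lost without GFP 20-week replicate 1 (adjusted p = 0.0854) or 2 (0.104), or without HOXB4 20-week replicate 1 (0.065) or 3 (0.124). It was also lost with further quantile normalisation (adjusted p = 0.052, limma) and with only the compared groups (0.118). Of the 3 other Sod2 probe sets 1 passed at 20 weeks (-0.65 ± 0.14, adjusted p = 0.00887), and the remaining 2 had differences of -0.50 and -0.23.

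Cat was the only one of the 9 genes whose HOXB4 arrays lay wholly above the GFP arrays. At 12 weeks it read 9.69, 9.54 and 9.72 in HOXB4 and 9.48, 9.30 and 9.27 in GFP cells, and at 20 weeks 10.20, 9.80 and 9.95 against 9.62, 9.62 and 9.77. Neither difference passed, with 0.30 ± 0.15 at 12 weeks (adjusted p = 0.283, limma) and 0.31 ± 0.15 at 20 weeks (adjusted p = 0.23). A second Cat probe set gave 0.32 and 0.35, with SEs of 0.28, and did not pass either. Its arrays were separate at 12 weeks but overlapped at 20 weeks, where HOXB4 replicate 3 and GFP replicate 1 both read 9.61.

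Mt1, the metallothionein, had the largest difference of the set by the brightest probe set of each gene. On the GFP arrays it read 7.91, 8.51 and 7.90 at 12 weeks and 8.43, 8.71 and 8.37 at 20 weeks. In HOXB4 cells it read 7.44, 8.10 and 7.54 at 6 weeks, 6.82, 6.80 and 6.87 at 12 weeks, and 6.77, 5.01 and 5.06 at 20 weeks. The HOXB4 arrays at 12 and 20 weeks lay below every GFP array, whereas those at 6 weeks reached into the range of GFP at 12 weeks. Replicate 1 at 20 weeks lay well above the other 2 arrays of its group and close to the 12-week arrays, so that group had the widest spread of the 5. Replicates 2 and 3 at 20 weeks lay below the median of their arrays (5.33 on both). They were not far above the highest nonspecific control probe set, which read 4.43 and 4.25. The size of the Mt1 difference at 20 weeks is therefore not exact.

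Against GFP, Mt1 differed by -1.28 ± 0.35 at 12 weeks (adjusted p = 0.0574, limma) and by -2.89 ± 0.35 at 20 weeks (adjusted p = 0.000137). Without HOXB4 20-week replicate 1 the latter was -3.47 (adjusted p = 1.09e-06). The probe set's name marks probes shared between transcripts (s_at). The other Mt1 probe set was dim, with group means of 4.95 to 5.24, and gave -0.05 ± 0.16 and -0.29 ± 0.16, neither of which passed. Averaging both probe sets moved the 20-week difference to -1.59, still called (adjusted p = 0.000682).

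Counted by overlap rather than by the model, 8 of the 9 genes had separate HOXB4 and GFP arrays at 12 weeks and 7 of 9 at 20 weeks. Over all genes the arrays did not overlap for 34.8% at 12 weeks and 25.4% at 20 weeks. Txnrd1 overlapped at both times and Gclc at 20 weeks. The separation of Gclc at 12 weeks was a near tie, with 8.0079 on the highest HOXB4 and 8.0084 on the lowest GFP array. Cat is in both counts with its HOXB4 arrays above the GFP arrays.

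**Figure D3:**
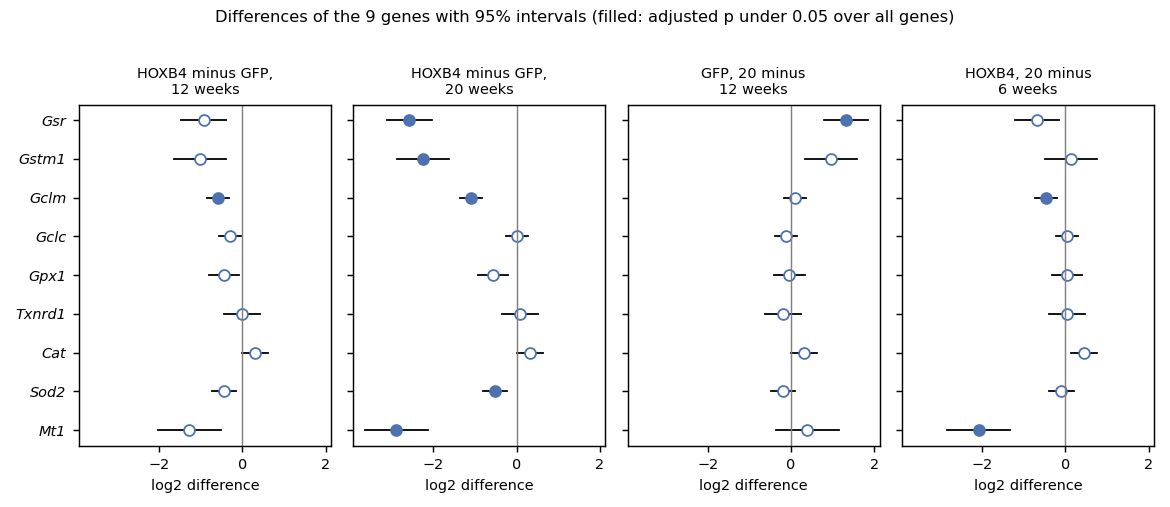
Log2 difference (horizontal axis) of the 9 genes in 4 comparisons with 95% intervals; filled points have an adjusted p under 0.05 over all genes. At 20 weeks the filled points of Gsr, Gstm1, Gclm, Sod2 and Mt1 all lie left of 0, Gsr is filled in GFP cells over time, and Gclm and Mt1 are filled in HOXB4 cells between 6 and 20 weeks.

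The difference between vectors was compared between the times as the HOXB4 effect at 20 minus that at 12 weeks. None of the 9 genes was called by limma, against 0.509% of all genes, and 4 of the 9 had an unadjusted p under 0.05, against 9.8% of all genes, all with a more negative difference at 20 weeks. These were Gsr (-1.65 ± 0.35, adjusted p = 0.0577), Mt1 (-1.61 ± 0.50, adjusted p = 0.211), Gstm1 (-1.22 ± 0.41, adjusted p = 0.268) and Gclm (-0.51 ± 0.17, adjusted p = 0.281). The second Gsr probe set was called (-2.09 ± 0.40, adjusted p = 0.0321). Gsr came under the threshold without GFP 20-week replicate 3 (-1.96, adjusted p = 0.00373) or HOXB4 20-week replicate 1 (-1.78, adjusted p = 0.0384), and Mt1 without HOXB4 20-week replicate 1 (-2.19, adjusted p = 0.00243). A change in these genes' deficit between 12 and 20 weeks was therefore not called in the set, and the result for Gsr lay at the threshold.

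The comparisons over time share arrays with the comparisons between vectors, so their values stand side by side and do not support each other. In GFP cells from 12 to 20 weeks 1 of 9 genes was called, against 2.37% of all genes. This was Gsr, which rose by 1.32 ± 0.25 (adjusted p = 0.0102, limma), as did its second probe set (1.70 ± 0.28, adjusted p = 0.00522). The call was lost without GFP 12-week replicate 1 (adjusted p = 0.0634) or GFP 20-week replicate 1 (0.0665) or 2 (0.054). Gstm1 had a difference of 0.95 ± 0.29 that did not pass (adjusted p = 0.12), and it passed without GFP 20-week replicate 3 (1.26, adjusted p = 0.0259). Gclm (0.10 ± 0.12) and the remaining genes did not pass in GFP cells.

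In HOXB4 cells 0 of 9 genes were called by limma from 6 to 12 weeks, against 1.57% of all genes. Mt1 (-0.86 ± 0.35) was the 1 gene with an unadjusted p under 0.05, against 16.7% of all genes. From 12 to 20 weeks 0 of 9 were called, against 0.252% of all genes, and 3 had an unadjusted p under 0.05, against 11.2% of all genes: Mt1 (-1.22 ± 0.35), Gclm (-0.41 ± 0.12) and Cat (0.33 ± 0.15). Without HOXB4 20-week replicate 1 Mt1 was called in that step (-1.79, adjusted p = 0.00311).

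Over the whole span from 6 to 20 weeks 2 of 9 were called, against 4.66% of all genes. Mt1 fell by 2.08 ± 0.35 (adjusted p = 0.00673, limma) and Gclm fell by 0.46 ± 0.12 (adjusted p = 0.0478). The arrays of both times did not overlap for either gene. Gsr had a difference of -0.68 ± 0.25 (adjusted p = 0.138) and Cat of 0.46 ± 0.15 (adjusted p = 0.0951). Without HOXB4 6-week replicate 1, the array with the large Gapdh difference, Mt1 was called (-2.21, adjusted p = 0.011), Gclm was not (-0.39, adjusted p = 0.114), and Cat was (0.58, adjusted p = 0.0478). The Gclm call was also lost without HOXB4 6-week replicate 2 (adjusted p = 0.0795) and without each HOXB4 20-week replicate (0.0677 to 0.146).

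Set side by side between 12 and 20 weeks, Gsr rose in GFP cells and had a difference of -0.33 ± 0.25 in HOXB4 cells. Mt1 had a difference of 0.40 ± 0.35 in GFP and of -1.22 ± 0.35 in HOXB4 cells. The contrast between these genes was not tested.

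The members were next set beside 106 other measured genes of 10 lists covering glutathione metabolism, the thioredoxin system, metal handling, NADPH supply, Nrf2 and FoxO factors and NADPH oxidase. At 20 weeks 17 of the 106 were lower and 5 higher in HOXB4 cells, with a median difference of -0.06. These made 20.8% of the 106, against 8.95% of all genes. At 12 weeks 6 were lower and 1 higher, with a median of -0.04, or 6.6% against 4.02%. The lists too were chosen with earlier results of these data known, so these shares are a description. The counts of single lists below are read against the same shares, and nothing particular to a list is drawn from 1 to 3 called genes.

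**Figure D4:**
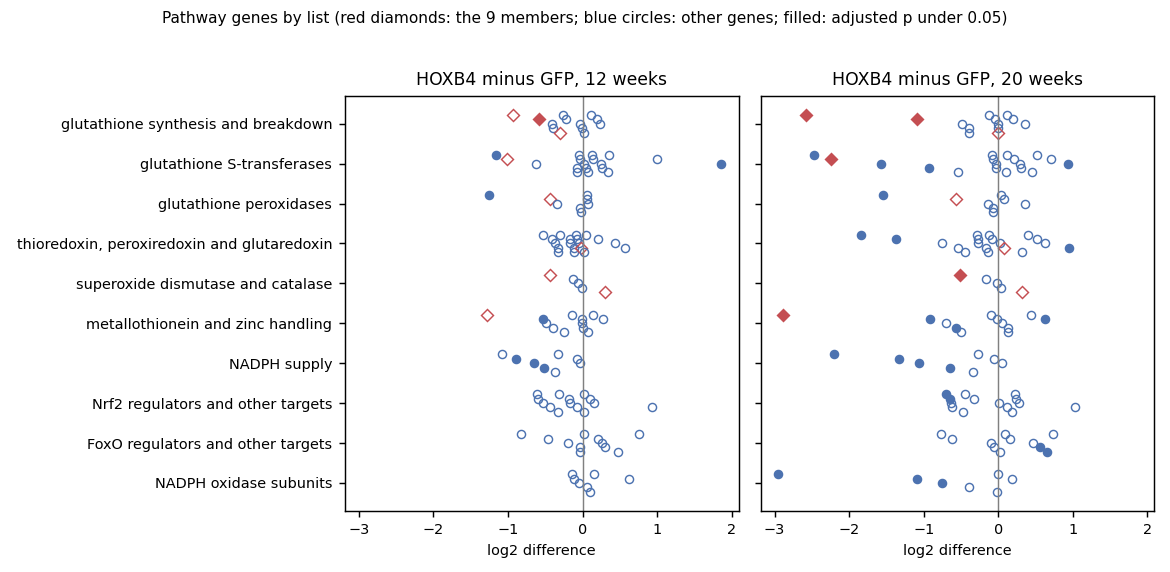
HOXB4 minus GFP log2 difference (horizontal axis) of each gene of the 10 pathway lists (vertical axis) at 12 weeks (left) and 20 weeks (right); red diamonds are the 9 measured members, blue circles the other 106 genes, and filled symbols have an adjusted p under 0.05. At 20 weeks the filled symbols lie mostly left of 0, and all 4 in the NADPH supply list do.

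Among the glutathione genes, no gene of synthesis and breakdown passed at 20 weeks other than Gsr and Gclm, which made 2 lower of 13. Glutathione synthetase (Gss) had a difference of 0.36 ± 0.15 (adjusted p = 0.173, limma). Of 18 transferases 4 were lower and 1 higher at 20 weeks. With Gstm1, Mgst1, a microsomal transferase, was lower, at -2.47 ± 0.44 (adjusted p = 0.00231), and Gsto1, an omega-class transferase, at -0.93 ± 0.17 (adjusted p = 0.0028). At 12 weeks Mgst2 was higher by 1.85 ± 0.23 (adjusted p = 0.00141) and Gsta4 lower, at -1.16 ± 0.29 (adjusted p = 0.0377). Transferases thus moved in both directions. Of 8 peroxidases Gpx3, the secreted form, was lower at 20 weeks (-1.55 ± 0.25, adjusted p = 0.00123), and Gpx7 at 12 weeks (-1.25 ± 0.30, adjusted p = 0.0334).

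In the thioredoxin and glutaredoxin list 2 of 19 genes were lower and 1 higher at 20 weeks, and 0 were called by limma at 12 weeks. Msrb1, which repairs oxidised methionine, was lower, at -1.84 ± 0.26 (adjusted p = 0.000375, limma), and glutaredoxin (Glrx) at -1.37 ± 0.26 (adjusted p = 0.00391). Txnrd3 was higher by 0.95 ± 0.21 (adjusted p = 0.00965), unlike its relative Txnrd1. Sod2 was the only called gene of the 5 in the dismutase and catalase list at 20 weeks.

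Of 12 metal-handling genes 3 were lower and 1 higher at 20 weeks. Beside Mt1 the lower genes were Mtf1, the zinc-sensing factor that drives metallothionein genes (-0.92 ± 0.21, adjusted p = 0.0114, limma), and the zinc transporter Slc39a7 (-0.57 ± 0.13, adjusted p = 0.0121). At 12 weeks Mtf1 was not called, and Slc39a7 was (-0.53 ± 0.13, adjusted p = 0.0359). The other metallothioneins, Mt3 and Mt4, had differences of 0.14 and -0.02 at 20 weeks, and neither passed.

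NADPH supplies the electrons for Gsr and Txnrd1. Of 8 genes of its supply 4 were lower at 20 weeks and 3 at 12 weeks, and none was higher. Pgd, of the pentose phosphate pathway, was lower, at -0.90 ± 0.14 at 12 weeks (adjusted p = 0.00448, limma) and -1.34 ± 0.14 at 20 weeks (adjusted p = 4.2e-05). Taldo1, of the same pathway, was lower, at -0.66 ± 0.17 and -1.06 ± 0.17, and the cytosolic isocitrate dehydrogenase Idh1 at -2.20 ± 0.36 at 20 weeks (adjusted p = 0.00126).

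Among the regulators, 2 of 14 genes of the Nrf2 list were lower at 20 weeks. These were Nfe2l2, which encodes Nrf2 itself (-0.70 ± 0.17, adjusted p = 0.0156, limma), and Mafg, one of its small Maf partners (-0.65 ± 0.15, adjusted p = 0.0121). None of the 14 was called at 12 weeks, where Nfe2l2 had a difference of -0.08. Its classical targets Nqo1 (0.01 ± 0.18) and Hmox1 (-0.63 ± 0.22, adjusted p = 0.0916) did not pass at 20 weeks. Of 11 FoxO genes 2 were higher at 20 weeks and 0 lower: Foxo3 (0.65 ± 0.11, adjusted p = 0.00136) and the sestrin Sesn3 (0.56 ± 0.14, adjusted p = 0.0226). Foxo3 also fell in GFP cells from 12 to 20 weeks (by 0.62 ± 0.11, adjusted p = 0.00625) and rose in HOXB4 cells from 6 to 20 weeks (by 0.56 ± 0.11, adjusted p = 0.0114). For the HOXB4 effect at 20 minus at 12 weeks Foxo3 was the 1 called gene of these 11, in the higher direction.

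NADPH oxidase, which makes superoxide in phagocytes, was represented by 7 genes, of which 3 were lower in HOXB4 cells at 20 weeks and 0 called at 12 weeks. Cybb, its catalytic subunit, was lower, at -2.95 ± 0.34 (adjusted p = 9.39e-05, limma), Cyba, the partner subunit, at -1.09 ± 0.22 (adjusted p = 0.00594), and Ncf4 at -0.76 ± 0.15 (adjusted p = 0.0055). Cybb rose by 3.46 ± 0.34 in GFP cells from 12 to 20 weeks (adjusted p = 0.000108). Between the vectors its difference was 0.62 at 12 weeks, which was not called. Its HOXB4 effect at 20 minus at 12 weeks was called by limma, at -3.57.

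Markers of several myeloid cell classes also differed between the vectors. The mean signal of 11 markers of granulocyte-monocyte progenitors lay between 10.07 and 10.22 on the GFP and 8.75 and 9.05 on the HOXB4 arrays at 12 weeks, and between 10.11 and 10.60 and 8.23 and 8.69 at 20 weeks. Of these markers 7 were lower in HOXB4 cells at 12 weeks and 9 at 20 weeks. The mean of 12 mature neutrophil markers was 6.33 to 6.93 in GFP and 7.27 to 7.82 in HOXB4 cells at 12 weeks. Only 2 of the 12 were called there, in opposite directions: Camp, a granule peptide, was higher (2.37 ± 0.55, adjusted p = 0.0264, limma) and Pglyrp1, a granule protein that binds peptidoglycan, lower (-1.32 ± 0.29, adjusted p = 0.0211). At 20 weeks the neutrophil mean was 8.99 to 9.07 in GFP and 5.96 to 7.11 in HOXB4 cells, with 10 of 12 markers lower. In GFP cells 8 of these 12 rose from 12 to 20 weeks.

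The mean of 12 monocyte markers was 6.32 to 6.55 in GFP and 5.75 to 6.07 in HOXB4 cells at 12 weeks, with 1 lower, and 7.26 to 7.35 and 5.63 to 6.00 at 20 weeks, with 7 lower. The mean of 6 eosinophil markers was 6.31 to 7.14 in GFP and 5.42 to 5.53 in HOXB4 cells at 12 weeks, with 2 lower, and 6.45 to 7.36 and 4.72 to 6.26 at 20 weeks, with 3 lower. At 20 weeks no marker of these 4 lists was higher in HOXB4 cells. Other lists differed from them: of 9 mast cell and basophil markers 2 were higher and 2 lower at 20 weeks. Of 10 megakaryocyte and platelet markers 5 were higher and 0 lower.

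Within groups the orders of the arrays were set side by side in examples picked after their values were seen. GFP 20-week replicate 3, low for Gsr and Gstm1 within its group, had the lowest progenitor mean of its group (10.11), and HOXB4 20-week replicate 1, high for Mt1, the highest of its own (8.69). However, GFP 12-week replicate 3 had the highest progenitor mean of its group (10.22) and the lowest Mt1 (7.90, against 7.91 on replicate 1). HOXB4 20-week replicate 2 had the lowest progenitor mean (8.228, against 8.234 on replicate 3) and the highest Gstm1 (8.78). These lowest places were near ties and fix no order. The part of these cells in the members' differences was not tested.

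**Figure D5:**
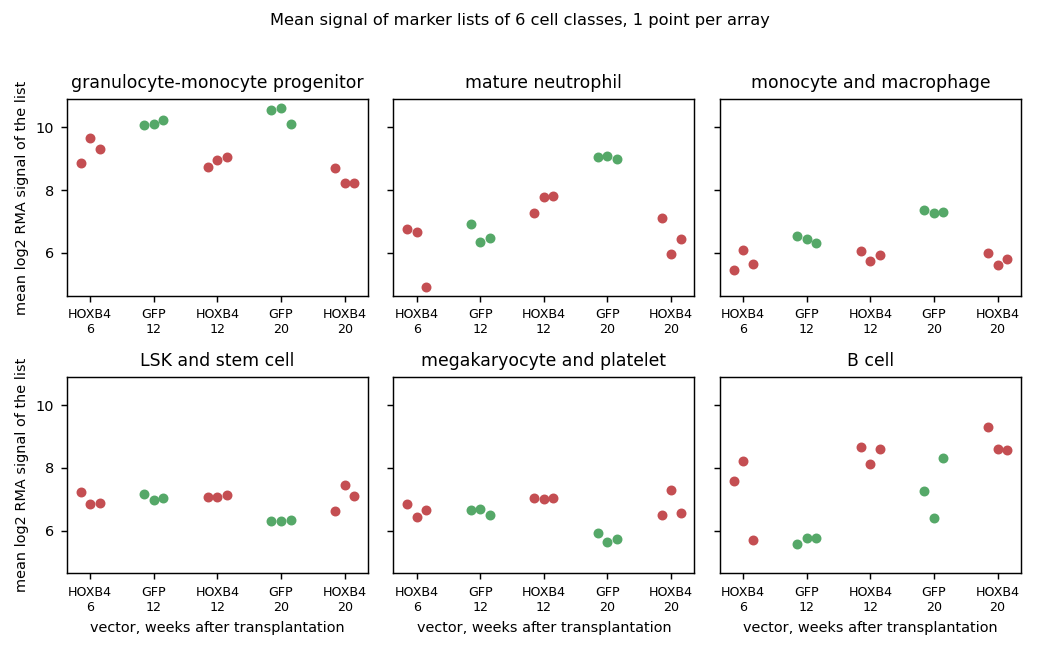
Mean log2 RMA signal (vertical axis) of the marker lists of 6 cell classes on each array, by vector and weeks after transplantation (horizontal axis), with HOXB4 in red and GFP in green. The progenitor list separates the vectors at both times, and the neutrophil list is highest in GFP cells at 20 weeks, at 8.99 to 9.07.

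Markers of LSK and stem cells were also compared, since the sort aims at them. Of 12 such markers 2 were lower in HOXB4 cells at 12 weeks, Cd34 and Kit, and 5 were higher at 20 weeks. Their mean was 6.30 to 6.35 in GFP and 6.64 to 7.45 in HOXB4 cells at 20 weeks. Of 11 B cell markers 10 were higher in HOXB4 cells at 12 weeks and 3 at 20 weeks. The part of these lists in the members' values was not tested either.

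The genes whose profiles lay closest to those of the 3 most variable members were found by the root mean square difference of centred log2 signals over 15 arrays. Predicted and unnamed genes, olfactory and vomeronasal receptors and small RNAs were left out of this search. Closest to Mt1 were Ctsg (0.418), a protease of primary granules, Coprs (0.426) and Mpo (0.435), the myeloperoxidase of the same granules. Closest to Gsr were Cebpd (0.224), a C/EBP transcription factor, Fstl3 (0.228) and Lbp (0.250). Closest to Gstm1 were Hvcn1 (0.228), the voltage-gated proton channel, Ms4a6b (0.290) and Gpr160 (0.297). For scale, the SD of the members over the 15 arrays was 1.15 for Mt1, 0.98 for Gsr and 0.997 for Gstm1. Within the set the closest pair was Gpx1 and Sod2 (0.180), and Gsr and Gstm1 lay 0.370 apart. Gclm and Gclc, the subunits of 1 enzyme, lay 0.407 apart, with SDs of 0.43 and 0.15. These distances describe 15 arrays that share 5 groups.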

How the data were processed

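Log2 expression values of 45141 probe sets on 15 arrays (5 groups of 3) were used as the authors deposited them. The submitters' processing notes name RMA and Partek 6.5, and filters or further scaling are not given in the sources used here. RNA was taken up with the RNAqueous-Micro kit and amplified with NuGEN reagents from 20 ng, per the labels' protocols, and such amplification and the quantile step can compress differences. Arrays have no read depth, so their number limits the precision. Array medians lay between 5.25 and 5.40, and the median of 23 nonspecific control probe sets between 2.50 and 2.83.

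Gene names came from the annotation of the platform and were brought up to date by gene identifier: 28898 had 1 symbol, 551 had several and 15692 were not listed, and 28689 were matched through the identifier. Each of 17097 genes was tested by its brightest probe set. A single model with a mean per group was fitted in R 4.3.3 by lmFit and eBayes of limma 3.58.1 (10 residual and 4.55 prior degrees of freedom), two-sided, with Benjamini-Hochberg adjustment over all genes. Other probe sets were tested in a fit over all named probe sets. The procedure was tested on simulated data.

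The members, lists and tests were chosen with earlier results of these data known. The rule for naming took every member, up to 3 called genes of a pathway list with the smallest p, the 3 closest profiles of the 3 most variable members, and markers beside a result. Gss, Nqo1, Hmox1, Mt3 and Mt4 fall outside it and were chosen after their values were seen. Promoters came from RefSeq (GRCm38.p6). The check of pairing correlated the deviations of arrays from their group means. With the same replicate number 2 of 30 pairs exceeded 0.1 (range -0.17 to 0.12), and with other numbers 7 of 60 (range -0.18 to 0.25). The numbers were not taken to pair the arrays, though this check cannot exclude a pairing between particular groups. Alternatives were a filter on the dimmest 1 in 3 genes, the mean of probe sets, all probe sets, quantile normalisation, median centring, a variance trend with robust moderation, array weights, the replicate block, only the compared groups, and each array left out. Leaving out HOXB4 6-week replicate 1 in the remaining comparisons was added after seeing the data.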

Additional observations from a re-analysis of the deposited data

How the results depend on the processing

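At 20 weeks Gsr, Gstm1, Gclm and Mt1 were called in 16 of 16 alternatives each, Sod2 in 10 and Gpx1 in 8, and the number of genes of the set that were called stayed between 4 and 6. Of 1044 member differences under an alternative, 943 kept their side of the threshold and sign, 34 changed sign while passing in neither, 26 lost and 41 gained the call, and 0 reversed. The causes were not tested. For HOXB4 against GFP at 12 weeks, 1 gene of the set was called. It was 3 without the dimmest genes, with the mean of probe sets or with median centring, 2 with a variance trend or without HOXB4 6-week replicate 1, 7 with array weights, 6 with only the compared groups, and 0 to 1 when an array of the comparison was left out. For the effect at 20 minus at 12 weeks, with 0 called, it was 1 without the dimmest genes, with the mean of probe sets, quantile normalisation, a variance trend or only the compared groups, 2 with array weights, and 0 to 2 with an array left out. For GFP over time, with 1 called, array weights gave 2 and leaving out an array 0 to 2. For HOXB4 at 20 against 12 weeks, with 0 called, leaving out an array gave 0 to 1. For HOXB4 at 20 against 6 weeks, with 2 called, it was 1 with median centring, a variance trend, array weights, all probe sets or the replicate block, 0 with only the compared groups, and 1 to 2 with an array left out.

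With the replicate block the 5 genes of the set stayed called at 20 weeks, and Gpx1 was called as well (adjusted p = 0.041, limma). For HOXB4 at 20 against 6 weeks 1 rather than 2 was called, where Gclm was lost (adjusted p = 0.0654, limma). Counts over all genes moved by more than 1.5 times under some alternatives. They ran from 214 to 2791 for HOXB4 against GFP at 12 weeks (688 as reported), 715 to 2408 at 20 weeks (1530), 38 to 563 for the difference between the times (87), 192 to 1892 in GFP cells (406), 0 to 923 for HOXB4 at 12 against 6 weeks (268), 1 to 108 at 20 against 12 weeks (43), and 1 to 1165 at 20 against 6 weeks (796).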
